A study of Mus musculus with 8 samples.

Results

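The protocadherins and the cadherins whose symbol is Cdh followed by a number were compared between the brains of C9-BAC mice and wild-type mice. Members were chosen by symbol alone: rows of the authors' deposited table whose RefSeq accessions map to a mouse gene symbol that begins with Pcdh, or with Cdh and a digit. That gave 91 of 15978 rows. They comprised 58 clustered protocadherins (14 alpha, 22 beta and 22 gamma), 12 non-clustered protocadherins (9 of the delta subfamily and 3 others) and 21 numbered cadherins (5 type I, 13 type II and 3 atypical). Of the reference genes that fit the rule, 2 of the 5 atypical cadherins, Cdh16 and Cdh17, had no row in the table.

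The series holds brain RNA from 5 male C9-BAC mice, titled mC9, and 3 male wild-type mice, titled mctl. The C9-BAC mice carry a bacterial artificial chromosome that holds human C9ORF72 with 500 G4C2 repeats, an expansion known as a cause of amyotrophic lateral sclerosis and frontotemporal dementia. All 8 mice share a mixed SJL/Bl6 background, and the labels name no brain region, age, transgenic line or batch. The authors' deposited table is their own DESeq2 comparison of the genotypes, with 1 mean normalized count (here the mean count), 1 log2 fold change (the log2 change, written ± its standard error, SE) and 1 p-value per gene. Values of single mice were not analysed here, and no header names the numerator of the fold change, so each sign is printed as deposited, without saying which genotype had the higher level.

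Cadherins are membrane proteins that bind their like on the neighbouring cell through repeated extracellular domains held rigid by calcium. The alpha, beta and gamma protocadherins lie side by side in 3 gene clusters. In the alpha and gamma clusters each variable first exon has its own promoter and is spliced to constant exons shared by the whole cluster, whereas each beta gene is a single exon. Individual neurons express varied combinations of these isoforms, chosen by promoter activity that depends on the DNA-binding protein CTCF, on cohesin and on DNA methylation, and in mice the isoforms serve self-avoidance of dendrites and survival of interneurons. Non-clustered protocadherins and classical cadherins are expressed in regional and cell type patterns, and classical cadherins join the actin cytoskeleton through catenins.

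Of the 91 members, 0 passed at a DESeq2 adjusted p of 0.05 in the authors' deposited table. Over all 15944 rows with a p, 0 passed, a share of 0%. Each member had a DESeq2 adjusted p of 0.9997. By unadjusted p the authors' deposited table had 3 members under 0.05, or 3.30%, against 1.50% of all rows. Of these members 2 had a positive fold change (all rows, 0.659%) and 1 a negative one (all rows, 0.840%). They were Pcdhb17 of the beta cluster, Pcdhga2 of the gamma cluster and the type II cadherin gene Cdh19. Members' fold changes on the deposited scale ran from 0.846 to 1.19. The direction of the fold change was positive for 63 members and negative for 28 in the authors' deposited table, which is 69.2% positive, against 47.4% positive over all rows. The difference between the members and the other rows was not tested.

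In the beta cluster 17 of 22 genes had a positive log2 fold change, with a median of 0.037, and in the gamma cluster 15 of 22, with a median of 0.046, in the authors' deposited table. In the alpha cluster 9 of 14 were positive, with a median of 0.023. Over all 58 clustered protocadherins 41 were positive (70.7%) and the median was 0.033. By comparison, 6 of the 12 non-clustered protocadherins were positive, with a median of -0.0010, which turned to 0.0033 when centred on the median of all rows. With the trend of all rows on GC content and length taken off, the order of the shares turned round: 40 of 58 clustered protocadherins were positive (69.0%, median 0.043), against 9 of 12 non-clustered ones (75%, median 0.017). Of the numbered cadherins 16 of 21 were positive, with a median of 0.033, against a median of -0.0044 over all rows in the authors' deposited table. No test of the clusters against the non-clustered members was made. These rows are not replicates of a genotype, since all were measured in the same 8 mice and the alpha and gamma rows share exons.

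**Figure D1:**
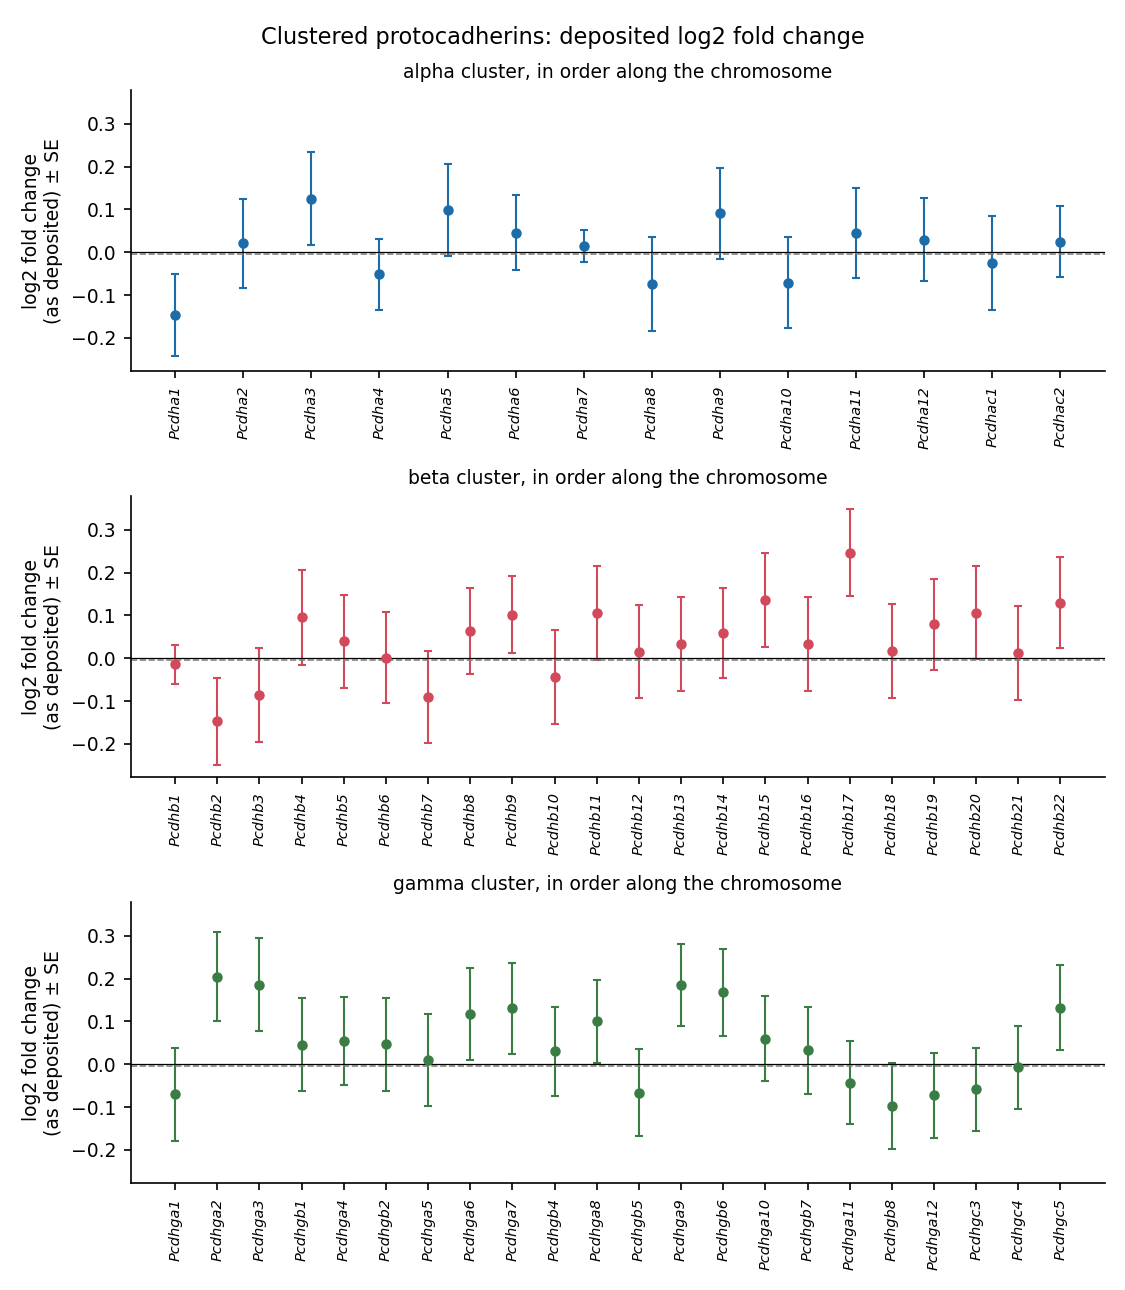
Log2 fold change as deposited (y axis, unitless) of each clustered protocadherin, in the order of the genes along the chromosome (x axis), with panels for the alpha, beta and gamma clusters. Points are the deposited values and bars 1 standard error; the dashed line is the median of all rows, -0.0044. The 12 beta genes from Pcdhb11 to Pcdhb22 lie above 0, and most bars of all panels cross 0.

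The alpha genes encode transmembrane proteins with a common cytoplasmic tail from 3 shared constant exons. In the authors' deposited table their log2 fold changes ran from -0.15 for Pcdha1 to 0.13 for Pcdha3. Pcdha1, the member nearest the 5' end of the cluster, was also its scarcest row, with a mean count of 20.7 and an SE of 0.096 (p = 0.128, DESeq2 adjusted p = 0.9997 in the authors' deposited table). Pcdha3 had a mean count of 80.9 and an SE of 0.11 (p = 0.252, DESeq2 adjusted p = 0.9997 in the authors' deposited table). The signs of these 2 genes differ. Among the rest, Pcdha5 at 0.099 and Pcdha9 at 0.091 were the most positive and Pcdha8 at -0.074 and Pcdha10 at -0.071 the most negative in the authors' deposited table, each smaller than its SE. Neighbouring alpha genes had no common sign: the longest run of positive values was 3 genes, Pcdha5 to Pcdha7. Pcdhac2, a C-type isoform known in mice for the tiling of serotonergic axons, was the most abundant alpha row at 891.7 and had a log2 change of 0.025 ± 0.083 in the authors' deposited table.

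The beta cluster held the member of smallest p. Pcdhb17 had a mean count of 279.4, the highest of the cluster, and a log2 change of 0.25 ± 0.10 (p = 0.0154, adjusted p = 0.9997, both from DESeq2 in the authors' deposited table). It lies on chromosome 18 at 37485021 to 37488290 (GRCm38, also called mm10). Next came Pcdhb2, with a mean count of 28.2 and a log2 change of -0.15 ± 0.10 (p = 0.144, adjusted p = 0.9997, both from DESeq2 in the authors' deposited table). The signs differed between stretches of the cluster. All 12 genes from Pcdhb11 to Pcdhb22 were positive, from 0.013 for Pcdhb21 to 0.25 for Pcdhb17 with a median of 0.070, whereas the 10 genes from Pcdhb1 to Pcdhb10 were 5 positive and 5 negative with a median of -0.0067, in the authors' deposited table. This division was drawn after the values were seen and carries no test. Of the 12 positive genes, 3 had a fold change larger than its own standard error: Pcdhb15 (0.14 ± 0.11), Pcdhb17 and Pcdhb22 (0.13 ± 0.11) in the authors' deposited table. In the first stretch Pcdhb9 was the other one beside Pcdhb2, at 0.10 ± 0.091, and Pcdhb1 was nearly absent, with a mean count of 2.67. The beta genes of the second stretch were also more abundant, with a median mean normalized count of 153.7, against 53.1 for those before them, and their median GC content was 44.1%, against 47.6%. With the trend of all rows on GC content and length taken off, the medians of the stretches were 0.14 and 0.012 and the splits stayed 12 to 0 and 5 to 5.

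The gamma cluster falls into A, B and C types by sequence. Pcdhga2, an A-type gene, had a mean count of 142.3 and a log2 change of 0.20 ± 0.10 (p = 0.0497, adjusted p = 0.9997, both from DESeq2 in the authors' deposited table). Pcdhga9 had a mean count of 279.9 and a log2 change of 0.18 ± 0.096 (p = 0.0549, adjusted p = 0.9997, both from DESeq2 in the authors' deposited table). Both were positive, as were Pcdhga3 at 0.19 and Pcdhgb6 at 0.17 in the authors' deposited table. Of the A-type genes 9 of 12 were positive (median 0.080), of the B-type genes 5 of 7 (median 0.032) and of the C-type genes 1 of 3. From Pcdhga2 to Pcdhga8, 10 consecutive genes were positive, while the 5 genes from Pcdhga11 to Pcdhgc4 were negative, between -0.098 for Pcdhgb8 and -0.0072 for Pcdhgc4, in the authors' deposited table. These stretches were picked after the values were seen and carry no test. With the trend of all rows on GC content and length taken off, Pcdhga5 came to -0.0028, which breaks the positive run. The 5 negative genes stayed negative. Pcdhgc4 is required for interneuron survival in mice. Pcdhgc5, at the 3' end, was the most abundant clustered row, with a mean count of 1815 and a log2 change of 0.13 ± 0.10 in the authors' deposited table (p = 0.184). A fold change larger than its own standard error was found for 8 of 22 gamma rows (36.4%), 5 of 22 beta rows and 2 of 14 alpha rows, against 0 of 12 non-clustered protocadherins, 4 of 21 numbered cadherins (19.0%) and 19.4% of all rows.

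The 3 clusters occupy 36930285 to 37841873 on chromosome 18 (GRCm38). The 27 rows of other genes within 500 kb on either side were 13 positive and 14 negative in the authors' deposited table. Their median log2 fold change was -0.0033, and 0 of them were under 0.05 by unadjusted p, against 1.50% of all rows. Taf7, a gene of a general transcription factor subunit that lies between the beta and gamma clusters, had a log2 change of -0.099 and its neighbour Slc25a2 one of 0.0038 in the authors' deposited table. All 384 non-member rows of the chromosome had a median of -0.015, with 40.1% positive, and one of -0.0020, with 49.2% positive, once the trend on GC content and length was taken off.

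Reads of the clustered genes can be shared between rows. In GENCODE vM21 transcripts the share of 50-base windows of a row that also occur in a transcript of another gene was 48.2% to 97.5% for alpha rows (median 60.6%), 20.1% to 65.9% for gamma rows (median 44.9%) and 0% to 12% for beta rows (median 4.46%). It was 0% in each of the 12 non-clustered protocadherins and at most 3.23% in a numbered cadherin, Cdh11. The sources used here do not say how the authors' counting treated reads of the constant exons. Alpha and gamma values are therefore uncertain as measures of single isoforms. The read length is not given either, so a window of 50 bases is a choice. The run of positive beta genes lies in rows with few such windows, 1.80% to 12%. Windows were matched exactly, and the part of shared reads in that run was not tested.

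The standard error was low for the abundance in several members, 3 of them alpha rows. Among the 500 rows nearest in mean normalized count, the deposited standard error of Pcdha7 (0.038) was at the 0.4 percentile, that of Pcdha6 (0.088) at the 1.2 percentile and that of Pcdha4 (0.083) at the 1.8 percentile, whereas the median alpha row was at the 37.0 percentile. Each of these genes has a partner row outside the symbol rule that begins within 41 bases of it and ends at the end of the gamma cluster. Gm37013 starts 41 bases from Pcdha4, Gm38666 starts 6 bases from Pcdha6 and Gm38667 starts 9 bases from Pcdha7. The partner rows had standard errors at the 1.4, 0.6 and 1.0 percentiles, in that order. Of the windows of the Gm37013 transcript 84.1% also occur in the Pcdha4 transcript and 14.3% in gamma transcripts. Log2 fold changes in the authors' deposited table were 0.080 for Gm37013, 0.041 for Gm38666 and -0.016 for Gm38667, against -0.051 for Pcdha4, 0.046 for Pcdha6 and 0.015 for Pcdha7. The part of such overlap in these standard errors was not tested. A low standard error for the count is no sign of precision in this table. Hba-a2 and Hbb-bs, which had no p, had standard errors of 0.043 and 0.044 at mean counts of 1183 and 721.5. Low values were also found where few or no windows are shared: Pcdhb9 was at the 1.2 percentile (0.091), Cdh23 at the 1.8 percentile (0.086) and Cdh3 at the 2.2 percentile (0.042).

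**Figure D2:**
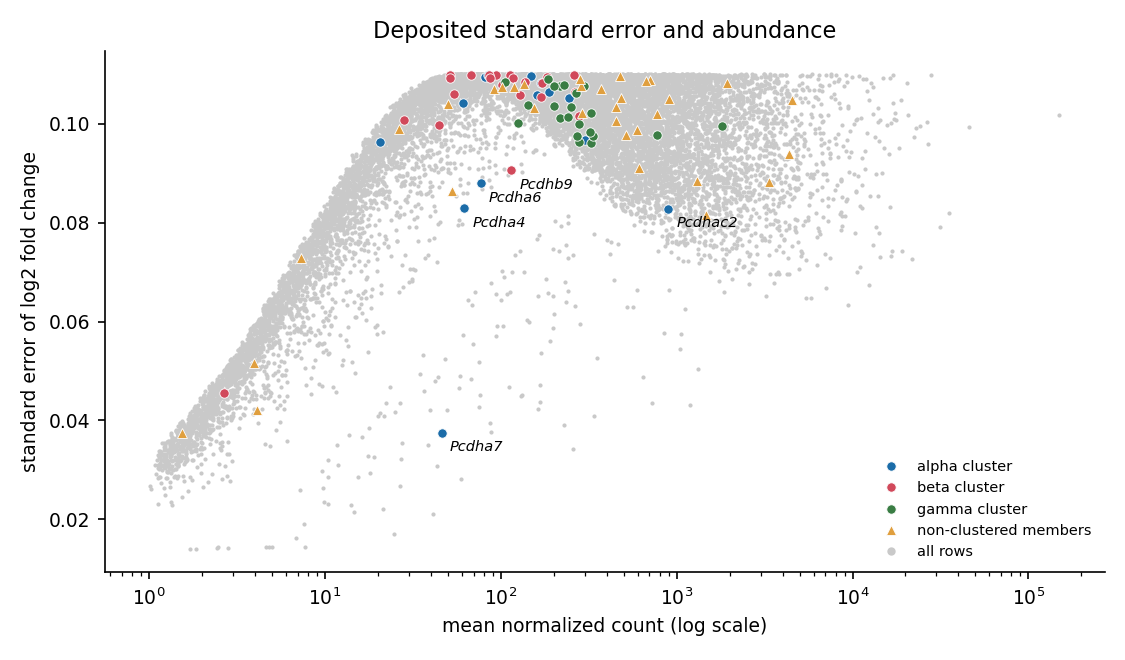
Deposited standard error of the log2 fold change (y axis, log2 units) against the mean normalized count (x axis, log scale). Circles are clustered protocadherins coloured by cluster, triangles non-clustered members and grey dots all rows. Pcdha7, at a standard error of 0.038, lies far below most rows of like abundance, with Pcdha4, Pcdha6, Pcdhb9 and, unlabelled among the triangles, Cdh23 (0.086) and Cdh3 (0.042) also below the main band.

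The delta protocadherins, homophilic adhesion genes of neuronal circuits, included the most abundant members, and their deposited fold changes were small. Pcdh7 had a mean count of 4528, Pcdh10 one of 4347, Pcdh9 one of 3339, Pcdh1 one of 1939 and Pcdh17 one of 1466 in the authors' deposited table. Their log2 fold changes were 0.000077 for Pcdh7, 0.035 for Pcdh10, 0.0063 for Pcdh9, 0.033 for Pcdh1 and -0.026 for Pcdh17 in the authors' deposited table, each ± an SE between 0.082 and 0.11. These 5 values lie well within 1 standard error of 0. The member of smallest p was the X-linked Pcdh11x, with a mean count of 596.0 and a log2 change of -0.069 ± 0.099 (p = 0.487, adjusted p = 0.9997, both from DESeq2 in the authors' deposited table). Pcdh19, whose human counterpart is known from an X-linked epilepsy, had a log2 change of -0.0022 ± 0.11 in the authors' deposited table. Pcdh8, an activity-induced gene in rodents, had one of -0.040 and Pcdh18 one of -0.019. Of the delta genes 4 were positive and 5 negative, and 6 positive and 3 negative with the trend on GC content and length of all rows taken off.

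Among the other non-clustered protocadherins, Pcdh15, a component of the tip links of hair cells, had a mean count of 514.4 and a log2 change of 0.016 ± 0.098 in the authors' deposited table (p = 0.870). Pcdh20 had a mean count of 286.9 and a log2 change of -0.020 ± 0.11 in the authors' deposited table (p = 0.856). Pcdh12, a protocadherin gene of endothelium, was nearly absent, at a mean count of 3.96 and a log2 change of 0.034 in the authors' deposited table (p = 0.508). None of the 12 non-clustered protocadherins had a fold change larger than its own standard error.

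The type I cadherins include N-cadherin, encoded by Cdh2, the main classical cadherin of neurons and their synapses. Cdh2 had a mean count of 903.6 and a log2 change of -0.036 ± 0.11 (p = 0.732, adjusted p = 0.9997, both from DESeq2 in the authors' deposited table). Cdh4 (R-cadherin) had a mean count of 454.0 and a log2 change of 0.049 ± 0.10 in the authors' deposited table (p = 0.627). The type I cadherins of epithelia and muscle were scarce. Mean normalized counts in the authors' deposited table were 26.4 for Cdh1 (E-cadherin), 4.09 for Cdh3 (P-cadherin) and 7.33 for Cdh15 (M-cadherin), with log2 changes of 0.031, 0.031 (p = 0.457) and 0.0061 in that order.

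Type II cadherins, which mark subsets of neurons and some glial and mesenchymal cells, showed the widest range of the non-clustered members. Cdh19, a cadherin gene known from the glial lineage of peripheral nerves, had a mean count of 101.7 and a log2 change of -0.24 ± 0.11 (p = 0.0245, adjusted p = 0.9997, both from DESeq2 in the authors' deposited table). Cdh11, first known from osteoblasts and mesenchyme, was the most abundant of the group at 1299 and had a log2 change of 0.13 ± 0.089 (p = 0.134, adjusted p = 0.9997, both from DESeq2 in the authors' deposited table). The signs of the 2 are opposite. Of the 13 type II genes 10 were positive and 3 negative (8 and 5 with the trend on GC content and length taken off), the other negative ones being Cdh12 at -0.095 and Cdh18 at -0.076 in the authors' deposited table. Positive values in the authors' deposited table included Cdh6 at 0.10, Cdh7 at 0.11, Cdh20 at 0.086, Cdh10 at 0.071, Cdh8 at 0.058, Cdh24 at 0.043, Cdh22 at 0.033 and Cdh9 at 0.0038. Cdh7, Cdh19 and Cdh20 lie on chromosome 1, at 109982237 to 110145272, 110888002 to 110977601 and 104768340 to 104995481 (GRCm38). Cdh7 and Cdh19 lie closer to each other than to Cdh20. Cdh19 differed in sign from Cdh7 and from Cdh20.

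Cdh5, which encodes the endothelial VE-cadherin, had a mean count of 118.8 and a log2 change of 0.086 ± 0.11 in the authors' deposited table (p = 0.424). Of 7 other endothelial and mural cell markers 6 were positive and 1 negative, with a median of 0.053. By unadjusted p 0 were under 0.05, against 1.50% of all rows. Fewer cells of a type and less RNA per cell cannot be told apart in RNA of brain tissue, and the part of cell composition in any of these values was not tested.

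The atypical cadherins are here the numbered cadherins listed under neither type I nor type II. Cdh13 (T-cadherin, which is anchored to the membrane by a lipid) had a mean count of 613.6 and a log2 change of -0.062 ± 0.091 in the authors' deposited table (p = 0.498). Cdh23, the tip-link partner of Pcdh15, had a mean count of 52.9 and a log2 change of 0.019 in the authors' deposited table. Cdh26 was at the edge of detection, with a mean count of 1.54 and a log2 change of 0.064 ± 0.037 (p = 0.0845, adjusted p = 0.9997, both from DESeq2 in the authors' deposited table). Standard errors this small at so few counts are no sign of precision in this table, where they fall as counts fall.

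**Figure D3:**
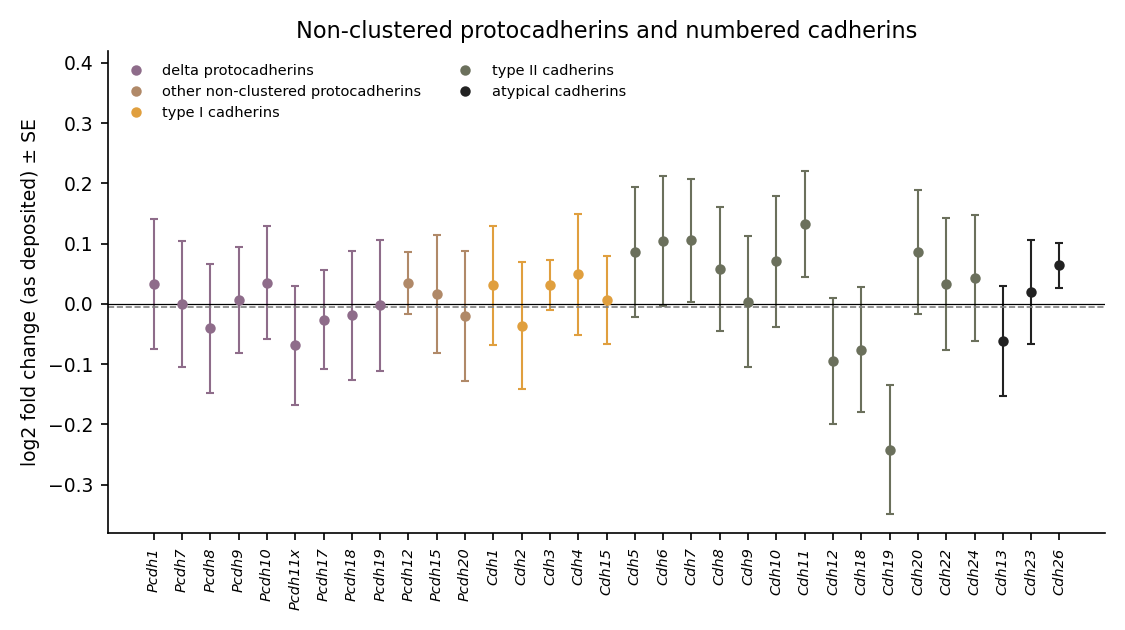
Log2 fold change as deposited (y axis) of the 33 non-clustered members (x axis), coloured by subfamily, with bars of 1 standard error. The 12 non-clustered protocadherins stay between -0.069 and 0.035, while the type II cadherins range from -0.24 for Cdh19 to 0.13 for Cdh11; the dashed line is the median of all rows.

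Levels differed far more between members than any fold change did as deposited. Per kb of transcript, the mean normalized count had a median of 21.7 in the alpha cluster, 27.3 in the beta cluster and 53.4 in the gamma cluster, against 128.0 in the delta protocadherins and 86.4 in the type II cadherins, and 63.1 over all rows. The highest levels per kb were those of Pcdh7 (629.0), Pcdh10 (605.7), Pcdh9 (591.7) and Pcdh1 (496.9). Among the clustered genes 3 of the 5 C-type isoforms led, with 382.8 per kb for Pcdhgc5, 164.1 for Pcdhgc3 and 151.4 for Pcdhac2, whereas Pcdhac1 (27.5) and Pcdhgc4 (53.8) lay among the other isoforms. Single A- and B-type gamma isoforms lay between 22.4 per kb for Pcdhga1 and 69.9 for Pcdhga11. These lengths include the shared exons, and the order of the clusters depends on that. Counting as length only the 50-base windows found in no transcript of another gene, a choice added after the values were seen, the medians per kb were 66.8 in the alpha cluster, 30.2 in the beta cluster and 105.0 in the gamma cluster, so that beta was lowest, with the counts of each row left as deposited. By that length Pcdhgc5 (693.2 per kb) stayed first among the clustered genes and Pcdha4 (459.0, with 97.5% of its windows left out) came before Pcdhgc3 (300.0) and Pcdhac2 (294.8). The levels are means over both genotypes and carry no spread between mice.

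**Figure D4:**
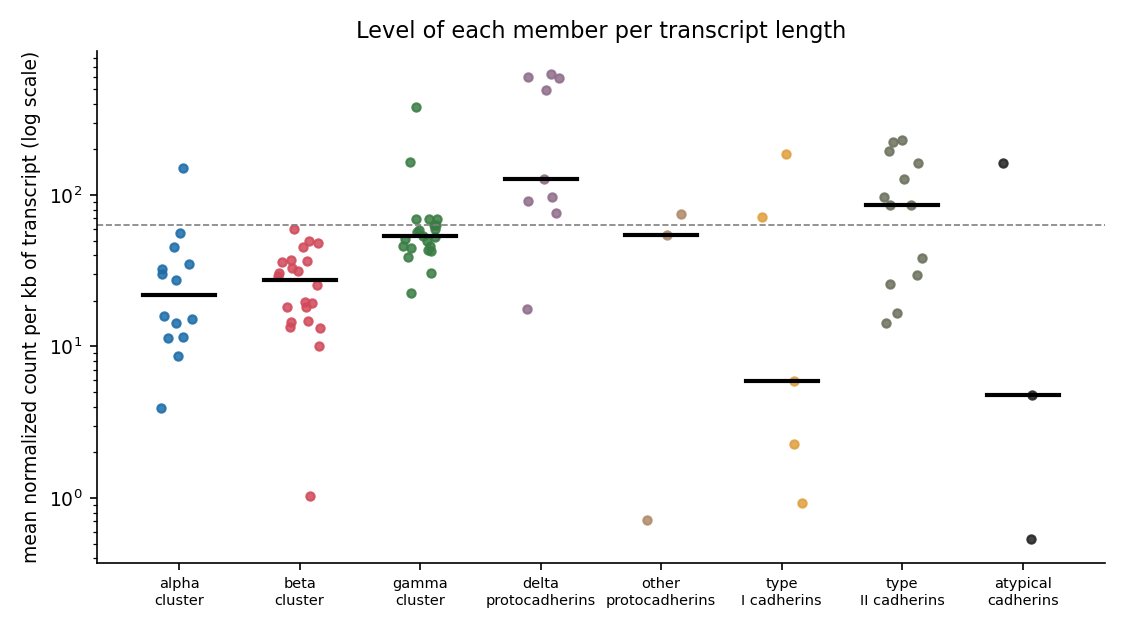
Mean normalized count per kb of transcript (y axis, log scale) of each member, by subfamily (x axis). Each point is 1 gene, black bars are medians, and the dashed line is the median of all rows, 63.1. The delta protocadherins have the highest median, 128.0, and the clusters have medians of 21.7, 27.3 and 53.4. Lengths include shared exons; without shared windows the beta median is the lowest of the 3 clusters.

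Across the table the fold change was ordered by the base composition of the transcript, so that composition was set beside the members' values. With all rows cut into 5 equal bands by GC content, 23.8% of rows were positive in the lowest band (29.8% to 44.7% GC) and 66.2% in the highest, in the authors' deposited table. The median GC content was 47.3% in the alpha cluster, 46.0% in the beta cluster and 53.0% in the gamma cluster, against 43.8% in the type II cadherins and 50.5% over all rows. All 7 beta genes in the lowest band were positive, as were 6 of 10 non-clustered members there. In band 2, where 36.7% of all rows were positive, 8 of 13 alpha and 9 of 13 beta genes were positive. Of the gamma genes in band 4, 12 of 18 were positive, against 60.6% of all rows there. The fold change that the trend with GC content and length assigns to the median beta gene was -0.025, and with the trend taken off the beta median was 0.075 and the split still 17 positive and 5 negative. With it taken off, the gamma median was 0.029 (14 positive, 8 negative) and the alpha median 0.033. The splits of the other members moved more: the non-clustered protocadherins came to 9 positive and 3 negative (75% positive) with a median of 0.017, and the numbered cadherins to 12 positive and 9 negative (57.1% positive).

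Transcripts of type II cadherins ranged from 37.4% to 62.7% GC, and the contrast is visible at one protein site, shown here for the 2 type II genes of smallest p and for the one richest in GC. The stretches are coding sequence of GENCODE vM21 transcripts, 5' to 3', around a calcium-binding motif of the first extracellular domain (leucine, aspartate, arginine, glutamate), whose 12 bases are in capitals. All 3 genes are on the minus strand. The Cdh19 stretch is in exon 3 at chr1:110949248-110949343, the Cdh11 stretch in exon 4 at chr8:102673936-102674031 and the Cdh22 stretch in exon 3 at chr2:165170747-165170842 (GRCm38). Their GC content is 40.6%, 53.1% and 59.4%, and that of the whole coding sequence 41.2%, 49.0% and 62.7%.
Cdh19: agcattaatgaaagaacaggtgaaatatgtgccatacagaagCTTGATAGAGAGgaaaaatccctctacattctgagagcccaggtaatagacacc
Cdh11: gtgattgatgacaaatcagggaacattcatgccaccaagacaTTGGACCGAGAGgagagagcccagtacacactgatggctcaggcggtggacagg
Cdh22: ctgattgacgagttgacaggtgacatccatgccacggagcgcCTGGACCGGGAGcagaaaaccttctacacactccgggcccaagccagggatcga
The log2 fold changes that go with these transcripts in the authors' deposited table are -0.24 for Cdh19, 0.13 for Cdh11 and 0.033 for Cdh22. With the trend on GC content and length taken off they were -0.16, 0.17 and -0.012, so that Cdh22 changed sign.

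**Figure D5:**
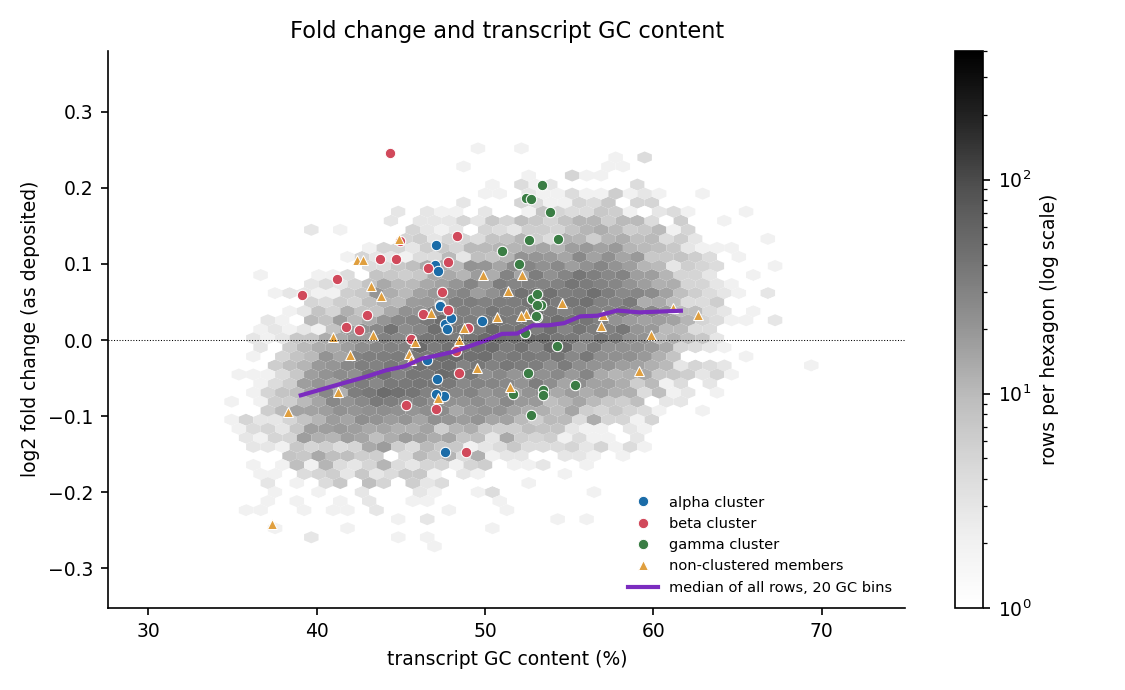
Log2 fold change as deposited (y axis) against transcript GC content in percent (x axis). Circles are clustered protocadherins by cluster, triangles non-clustered members, hexagons all rows with a mean count of at least 10 (shade is the number of rows, log scale), and the line is the median of all rows in 20 bins of GC content. The line climbs with GC content, and the 7 beta genes under 44.7% GC lie above it and above 0.

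Because the deposited statistic is narrower than a standard normal (its robust SD was 0.789), it was also rescaled. Then 6 of the 86 members with a mean count of at least 10 had an unadjusted p under 0.05, against 4.95% of all such rows: Pcdhb17, Cdh19, Pcdhga2, Pcdhga9, Pcdhga3 and Pcdhgb6. With the trend on GC content and length taken off before rescaling there were 15, against 6.21% of all such rows. Neither setting gave a Benjamini-Hochberg adjusted p under 0.05 for a member, and the smallest was 0.0915 for Pcdhb17 with the trend taken off. The share of all rows that passed by adjusted p in these settings is not given here. The count of 0 is therefore no result about the members.

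Genes that act with the members were looked up as lists. Of their genes in the authors' deposited table, 0 passed at 0.05 by DESeq2 adjusted p, and 0 by unadjusted p. Over all rows with a p the shares were 0% and 1.50%. Of the 9 catenin genes, which link cadherins to actin or to signalling, 6 were positive and 3 negative with a median log2 fold change of 0.042. Ctnnal1 had one of -0.20 ± 0.11 (p = 0.0548) and Ctnnd2, a catenin gene of neurons, one of 0.10 ± 0.098 (p = 0.290), in the authors' deposited table. The 18 large and other cadherin superfamily genes with a row were 9 positive and 9 negative (median 0.0045). Those of smallest p were Dsc3, a desmosomal cadherin gene, at -0.080 and Clstn1, a calsyntenin gene of synapses, at 0.13 in the authors' deposited table.

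The 21 regulators of clustered protocadherin promoters and chromatin were 5 positive and 16 negative (23.8% positive, against 47.4% over all rows). The authors' deposited table gave them a median log2 change of -0.044. Their median GC content was 46.4%, and with the trend on GC content and length taken off the median was -0.016. The split was still 5 positive and 16 negative, against 49.4% positive over all rows. Neither this split nor any link of it to the clusters was tested. Rest, a repressor of neuronal genes, had a log2 change of -0.17 ± 0.11 (p = 0.107) and the cohesin release factor gene Wapl one of -0.13 ± 0.093 (p = 0.160) in the authors' deposited table. The 20 signalling and processing partners, among them focal adhesion kinases, the WAVE complex and gamma-secretase, were 13 positive and 7 negative with a median of 0.011. Marcks had a log2 change of -0.13 and Pikfyve one of -0.092 in the authors' deposited table.

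Markers of the labelled tissue, brain, were present: the authors' deposited table held all 8 neuron markers, all 5 astrocyte markers and 5 of 6 oligodendrocyte lineage markers at mean counts of 100 or more. Choroid plexus and ependyma markers were scarce, with a highest count of 35.7. Median log2 fold changes were 0.049 for neurons (6 of 8 positive), -0.057 for astrocytes (1 of 5), 0.021 for the oligodendrocyte lineage (3 of 6), -0.048 for microglia (1 of 4), 0.078 for meninges and fibroblasts (5 of 6), 0.014 for choroid plexus and ependyma (3 of 4), -0.033 for olfactory bulb and immature neurons (1 of 6) and 0.067 for blood (3 of 3). The 2 negative neuron markers, Gad2 and Gad1, had the smallest p of that list. Each had a log2 change of -0.19 (DESeq2 p = 0.0631 and 0.0694 in the authors' deposited table). With the trend on GC content and length taken off, 2 astrocyte, 4 oligodendrocyte lineage, 4 meningeal, 2 choroid and ependyma and 7 endothelial and mural markers were positive. Eomes and the blood markers Hba-a2 and Hbb-bs had no p. Among the markers with a p, Sox11, which encodes a transcription factor of immature neurons, was the 1 under 0.05 by unadjusted p. Its log2 change was -0.24 (DESeq2 p = 0.0240 in the authors' deposited table). Over all rows with a p, 1.50% were under 0.05.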

How the data were processed

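Brain RNA of 5 C9-BAC and 3 wild-type mice was sequenced from strand-specific libraries made without poly(A) selection, per the labels' protocols. The submitters' processing notes name Bowtie2, Trimmomatic, DESeq2 and DESeq and the mm10 build, with no parameters, as the tools used by the authors. For counter, annotation and filters, the sources used here give none. The deposit is 1 table. Its mean normalized count is a signal that the authors averaged over samples. Per the file headers, fold changes and standard errors are log2 values, and the Wald statistic is a deposited score. Unadjusted p-values and adjusted p-values were deposited by the authors. The adjusted p differed from a Benjamini-Hochberg adjustment over 15944 rows by at most 5.3e-12. Standard errors fall toward low counts. Shrinkage of fold changes by a prior is one way to this form, and fold changes so shrunk understate differences. Mean normalized counts sum to 9226666, the only measure of depth used here.

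RefSeq accessions gave symbols from the GRCm38.p6 gene table for 15853 rows and GENCODE vM21 for 77 more, and 48 rows had none. GC content and length of transcripts were found for 15751 rows. Trends were least-squares fits (cubic in GC content, quadratic in log2 length) over rows at 10 or more mean normalized counts, tested on simulated data, in numpy 2.4.6 and scipy 1.17.1. Members and lists were chosen with earlier results of these data known. In each subfamily the rule names the 2 genes of smallest p, the most abundant, the one of largest fold change and those with p under 0.05. In each related list it names the 2 of smallest p. Other members were named after their values were seen. If samples were not separate mice, p-values measure technical spread only.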

Additional observations from a re-analysis of the deposited data

How the results depend on the processing

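No paired analysis was possible because the genotypes share no replicate numbers and the deposited table has no values per sample, which also means that fits without single mice were not run. Among members, 0 passed at an adjusted p of 0.05 under each alternative run. The share of all rows that passed in those runs is not given here, and it was 0% as deposited. The count with an unadjusted p under 0.05 was 3 as deposited, against 1.50% of all rows. It was 6 with the statistic rescaled to the empirical null, against 4.95% of all rows so tested. With the trend on GC content and length taken off before rescaling it was 15, against 6.21% of all rows so tested. Rescaling divides the statistic by a robust SD and so lowers p-values by construction. That SD was 0.789 for the deposited statistic and 0.6865 with the trend taken off. The median log2 fold change of the non-clustered protocadherins, -0.0010 as deposited, was 0.0033 after centring on all rows and 0.017 with the trend taken off. That of Pcdh20 was 0.034 with the trend taken off. Of the other values recomputed, 88 were labelled the same, by a rule that is loose for medians. The named genes among them kept their sign without passing an adjusted p of 0.05, and counts stayed close to the deposited count. A group median needed only the same sign and a shift under the group's median standard error. In the beta cluster that error was 0.11, so a median that went from 0.037 to 0.075 with the trend taken off was labelled the same. Of the 91 members, 10 changed sign with the trend taken off, none with an absolute log2 fold change over 0.043. Median levels per kb of the clusters depend on whether shared exons count as length, a choice added after seeing the data. In all, 5 members had a mean normalized count under 10. Over all rows the deposited log2 fold changes ran from -0.32 to 0.35, with standard errors up to 0.11. Whether they were shrunk was not tested, and if so they understate differences.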
